A study of Homo sapiens with 9 samples.

Results

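SH3BGRL, ZFP3, GIPC2, GABRB2 and GLRB are 5 genes that were transcribed in LIM1215-parental cells and had 0 to 2 counts in all in each of the cetuximab-resistant lines LIM1215-R1 and LIM1215-R2, and GASK1B is a gene near GLRB whose counts were lower in both lines without reaching 0. The 6 genes were picked by symbol out of 58920 genes listed in every count table, because of their counts in the parental and resistant libraries. Their values against parental cells are therefore given as a description without a test. LIM1215 is a human colorectal cancer cell line, and cetuximab is an antibody that binds the epidermal growth factor receptor. Both resistant lines were selected independently from LIM1215 over months of rising cetuximab, as mixed populations and not as single clones, and LIM1215-parental was kept in parallel without the antibody. RNA of all 3 lines came from untreated culture, with 3 libraries per line that the study calls technical replicates, so the spread and the p-values below describe these libraries and may not cover separate cultures. Total counts per library lay between 13737416 and 18725014, and a count of 3, taken here as the floor of detection, equals 0.158 to 0.217 CPM (counts scaled to library size) in a single library.

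The 6 genes have different roles. SH3BGRL encodes a small protein of the SH3-domain-binding glutamic acid-rich family with a thioredoxin-like fold. ZFP3 encodes a zinc finger protein of the C2H2 class, whose finger repeats typically bind DNA. GIPC2 is a PDZ-domain adaptor, and proteins of its family hold the tails of membrane receptors and link them to the motor myosin VI during endocytosis. GABRB2 and GLRB encode the beta 2 subunit of the GABA-A receptor and the beta subunit of the glycine receptor, both chloride channels of inhibitory synapses, and the glycine receptor beta subunit is the one that binds the scaffold protein gephyrin. GASK1B encodes a Golgi-associated protein of the secretory pathway kinase families. Since RNA was measured in bulk, fewer cells with a transcript and less transcript per cell cannot be told apart.

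The reference promoters of these genes differed widely in base composition. RefSeq (GRCh38.p14, the build of the count tables) gave windows of 300 bases for all 6 genes, with 2 windows for GLRB and 2 for GASK1B. Each window runs from 250 bases before to 50 after a start site. The GABRB2 window, chr5:161546676-161546975 (minus strand), lies within the gene and not at its outermost 5′ end at 161548404. CpG dinucleotides, the bases at which promoters can be methylated, numbered 37 and 40 in the GLRB windows and 32 in that of ZFP3, against a median of 14 over 35116 windows. The SH3BGRL window held 12 and that of GABRB2 11, whereas GIPC2 held 4 and GASK1B 3 and 2. A GLRB window therefore had more CpG dinucleotides than 88.7% or 92.4% of all windows, and the GASK1B windows more than 18.2% or 11.0%. The windows of 4 genes are printed 5′ to 3′ on the gene's strand to show this range, with each CpG in capitals. They lie at chrX:81201852-81202151 (plus strand) for SH3BGRL, chr4:157075900-157076199 (plus strand) for the first window of GLRB, chr1:78044720-78045019 (plus strand) for GIPC2 and chr4:158172976-158173275 (minus strand) for the first window of GASK1B.
SH3BGRL: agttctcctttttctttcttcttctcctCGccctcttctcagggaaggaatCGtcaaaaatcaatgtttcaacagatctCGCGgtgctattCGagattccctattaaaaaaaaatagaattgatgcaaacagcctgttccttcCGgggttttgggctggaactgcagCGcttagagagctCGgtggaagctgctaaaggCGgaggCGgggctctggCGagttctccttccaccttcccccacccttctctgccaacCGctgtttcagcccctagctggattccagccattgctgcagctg
GLRB: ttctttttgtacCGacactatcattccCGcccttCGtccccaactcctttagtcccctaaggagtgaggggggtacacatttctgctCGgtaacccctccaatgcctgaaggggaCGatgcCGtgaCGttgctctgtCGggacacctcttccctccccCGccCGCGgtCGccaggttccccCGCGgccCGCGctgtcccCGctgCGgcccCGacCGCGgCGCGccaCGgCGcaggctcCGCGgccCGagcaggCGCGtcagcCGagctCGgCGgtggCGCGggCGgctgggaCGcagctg
GIPC2: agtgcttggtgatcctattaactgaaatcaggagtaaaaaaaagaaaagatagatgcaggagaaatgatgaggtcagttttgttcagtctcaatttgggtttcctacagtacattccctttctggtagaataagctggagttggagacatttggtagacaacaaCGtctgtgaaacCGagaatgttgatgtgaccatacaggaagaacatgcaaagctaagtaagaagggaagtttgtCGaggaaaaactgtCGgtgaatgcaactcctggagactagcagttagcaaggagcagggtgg
GASK1B: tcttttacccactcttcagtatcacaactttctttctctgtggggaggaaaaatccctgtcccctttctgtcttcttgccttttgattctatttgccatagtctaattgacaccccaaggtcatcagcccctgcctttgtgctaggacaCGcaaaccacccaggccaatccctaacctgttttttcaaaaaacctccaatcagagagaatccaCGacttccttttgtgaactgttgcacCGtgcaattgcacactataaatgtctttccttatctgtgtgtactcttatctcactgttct

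GC content was 69.7% and 74.3% in the GLRB windows, 66.0% in ZFP3, 51.3% in SH3BGRL, 42.0% in GIPC2, 39.0% in GABRB2 and 43.7% and 35.7% in GASK1B, beside a median of 58.7% over all windows. The ratio of observed to expected CpG was 1.03 and 0.982 in GLRB, 1.01 in ZFP3 and 0.976 in GABRB2, all above the median of 0.579. It was 0.616 in SH3BGRL, 0.336 in GIPC2, and 0.238 and 0.21 in GASK1B. The letters TATAAA, searched on both strands, occurred in the first GASK1B window and in none of the other windows of these genes, and 11.5% of all windows held them. The letters GGGCGG occurred in the ZFP3 window and in both GLRB windows on one strand or the other, against 45.0% of all windows. These matches describe the reference sequence, and methylation of the windows was not measured here.

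**Figure D1:**
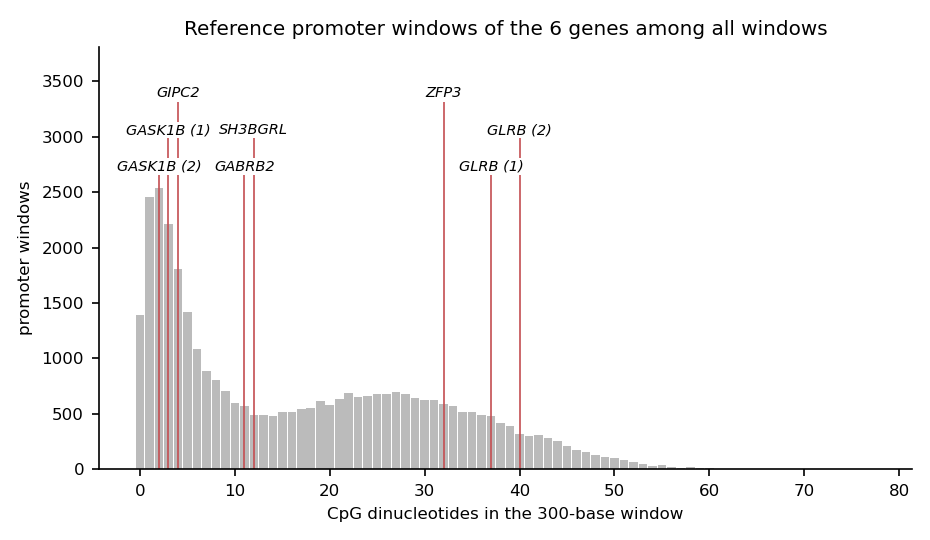
Number of 300-base RefSeq promoter windows (vertical axis) with each number of CpG dinucleotides (horizontal axis), with red lines at the windows of the 6 genes and (1) and (2) for the windows of genes with 2. GLRB and ZFP3 lie at 32 to 40, SH3BGRL and GABRB2 at 11 and 12, and GIPC2 and GASK1B at 2 to 4.

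SH3BGRL, on chromosome X at 81202102 to 81298547 on the plus strand, was the most abundant of the 6 in LIM1215-parental. It had 658, 545 and 785 counts in the 3 parental libraries, which is 38.8, 39.4 and 41.2 CPM and a mean of 39.8 ± 1.26 CPM (SD, n = 3). LIM1215-R1 had 1 count in 1 library and 0 in the others, and LIM1215-R2 had 2 counts in 1 library and 0 in the others. No resistant library came near the parental ones, and 4 of 6 held no count of this gene at all. The CPM was 1920-fold lower in LIM1215-R1 (exact 95% counting interval 345 to 76000) and 963-fold lower in LIM1215-R2 (266 to 7960), intervals that cover counting error only.

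The next 4 genes were less abundant in parental cells and had 0 counts in all 6 resistant libraries. ZFP3, on chromosome 17 at 5078467 to 5096374 on the plus strand, had 72, 55 and 85 parental counts (4.25, 3.97 and 4.46 CPM, mean 4.23 ± 0.246). Taking 3 counts over the 3 libraries of a line as the floor, it was at least 68.0-fold lower in both resistant lines. GIPC2, on chromosome 1 at 78044970 to 78138444 on the plus strand, had 55, 55 and 95 parental counts (3.25, 3.97 and 4.99 CPM, mean 4.07 ± 0.876). The bound was at least 65.4-fold for LIM1215-R1 and at least 65.5-fold for LIM1215-R2.

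Both receptor subunits were lower still in parental cells, so their bounds are weaker. GABRB2, on chromosome 5 at 161288436 to 161548404 on the minus strand, had 28, 37 and 45 parental counts (1.65, 2.67 and 2.36 CPM, mean 2.23 ± 0.523). The bound was at least 35.8-fold for LIM1215-R1 and at least 35.9-fold for LIM1215-R2. GLRB, on chromosome 4 at 157076150 to 157172090 on the plus strand, had 28, 24 and 30 parental counts (1.65, 1.73 and 1.58 CPM, mean 1.65 ± 0.079). It was at least 26.6-fold lower in both lines. For these 4 genes the resistant levels were not detectable at a floor of 0.0622 CPM over the LIM1215-R1 libraries and 0.0621 CPM over the LIM1215-R2 libraries, which does not show that transcription was absent.

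GASK1B, on chromosome 4 at 158124474 to 158173025 on the minus strand, was lower in both resistant lines but detected in every library. Parental counts were 260, 216 and 279 (15.3, 15.6 and 14.7 CPM, mean 15.2 ± 0.49). LIM1215-R1 had 75, 64 and 50 counts (4.6, 4.02 and 3.13 CPM, mean 3.92 ± 0.741), and LIM1215-R2 had 22, 22 and 24 counts (1.31, 1.36 and 1.57 CPM, mean 1.41 ± 0.137). The 3 lines did not overlap, with parental libraries highest and LIM1215-R2 libraries lowest. LIM1215-R1 kept 25.8% of the parental CPM and LIM1215-R2 9.29%, falls of 3.88-fold and 10.8-fold. Here and below a gene was called when its adjusted p in edgeR did not exceed 0.01. Against parental cells, 13.4% of the 19102 genes tested were called lower in LIM1215-R1 and 11.6% in LIM1215-R2, and nothing is read from the 6 genes being among them.

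**Figure D2:**
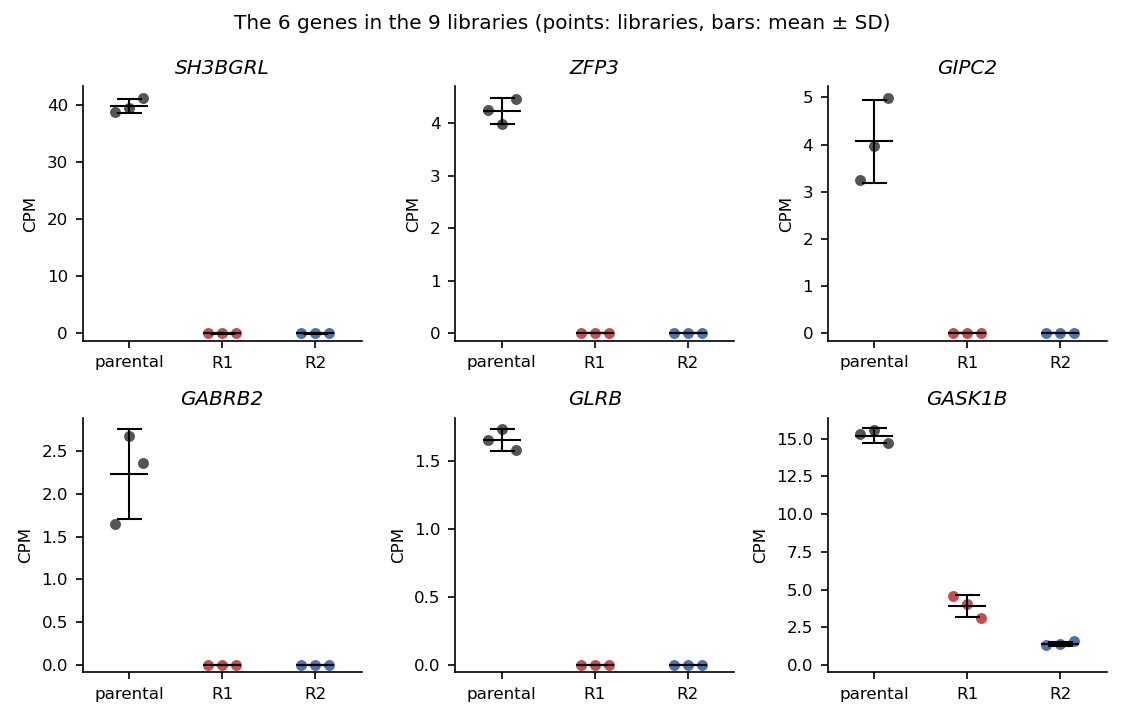
CPM (vertical axis, linear, own scale per gene) of the 6 genes in the 3 libraries of LIM1215-parental, R1 and R2, with points for libraries and bars for the mean ± SD. SH3BGRL, ZFP3, GIPC2, GABRB2 and GLRB lie at or near 0 in the 6 resistant libraries, and GASK1B falls from a mean of 15.2 to 3.92 and 1.41 CPM.

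Per length, the parental levels spanned a wide range. Expressed as CPM per kb of exon, with exons joined over the transcripts of GENCODE release 44, SH3BGRL stood at 18.6 ± 0.582 and lay above 85.3% of the tested genes with an exon length. GASK1B followed at 1.93 ± 0.0582, then GIPC2 at 1.04 ± 0.224, ZFP3 at 0.848 ± 0.0493, GLRB at 0.488 ± 0.0221 and GABRB2 at 0.13 ± 0.0305 (SD, n = 3). The libraries of GIPC2 ranged from 0.832 to 1.28 and those of ZFP3 from 0.796 to 0.894, so these neighbours in the order overlapped, and the others did not. GABRB2 lay above 15.5% of the genes, GLRB above 27.3%, ZFP3 above 32.6%, GIPC2 above 34.7% and GASK1B above 41.7%, all in the lower part of the distribution.

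The comparison between the resistant lines was not the one that chose the genes. For 5 of the 6 the choice still fixed its outcome, because they had 0 to 2 counts in each resistant line. GASK1B was lower in LIM1215-R2 than in LIM1215-R1, by -1.47 on the log2 scale (SE 0.2, adjusted p = 6.64e-06 in the quasi-likelihood test of edgeR, adjusted by the Benjamini-Hochberg method). LIM1215-R1 held 2.77 times the GASK1B CPM of LIM1215-R2, and its lowest library, at 3.13 CPM, stood above the highest LIM1215-R2 library, at 1.57 CPM. GASK1B, the 1 gene of 6 with enough counts in the resistant lines to be called, was called in this comparison. Over all genes tested, 3.77% were called lower, 3.39% higher and 7.16% in either direction. SH3BGRL, with 1 against 2 counts, differed by 0.79 on the log2 scale (SE 1.35, adjusted p = 0.79), and counts this low could not have given a call. ZFP3, GIPC2, GABRB2 and GLRB had 0 counts in both lines, so no difference could be tested.

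Around the 6 genes, most of the neighbouring genes that could be tested were not called in either line. Within 1 Mb on either side, RefSeq placed 205 other genes, of which 200 were listed in the count tables and 87 had enough counts to be tested. In LIM1215-R1, 11 of the 87 (12.6%) were called lower and 9 (10.3%) higher than in parental cells, against 13.4% and 14.0% of all genes tested. In LIM1215-R2, 14 (16.1%) were called lower and 9 (10.3%) higher, against 11.6% and 12.3% of all genes. The 14 became 9 with DESeq2, 6 without LIM1215-R2 replicate 1 and 9 without parental replicate 2 or LIM1215-R2 replicate 2. The shares of all genes called in these settings are not given here, so a fall particular to the neighbours cannot be read from them. The median log2 fold change of the neighbours was -0.04 in LIM1215-R1 and 0.01 in LIM1215-R2, beside -0.01 and 0 over all genes. The comparisons of both lines share the 3 parental libraries. Called genes whose log2 value also moved by 1.5 or more are named DEGs here, and they numbered 2 lower and 3 higher in LIM1215-R1 and 3 lower and 4 higher in LIM1215-R2. Over all genes, 1.91% were lower and 3.24% higher DEGs in LIM1215-R1, and 2.19% and 2.63% in LIM1215-R2.

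**Figure D3:**
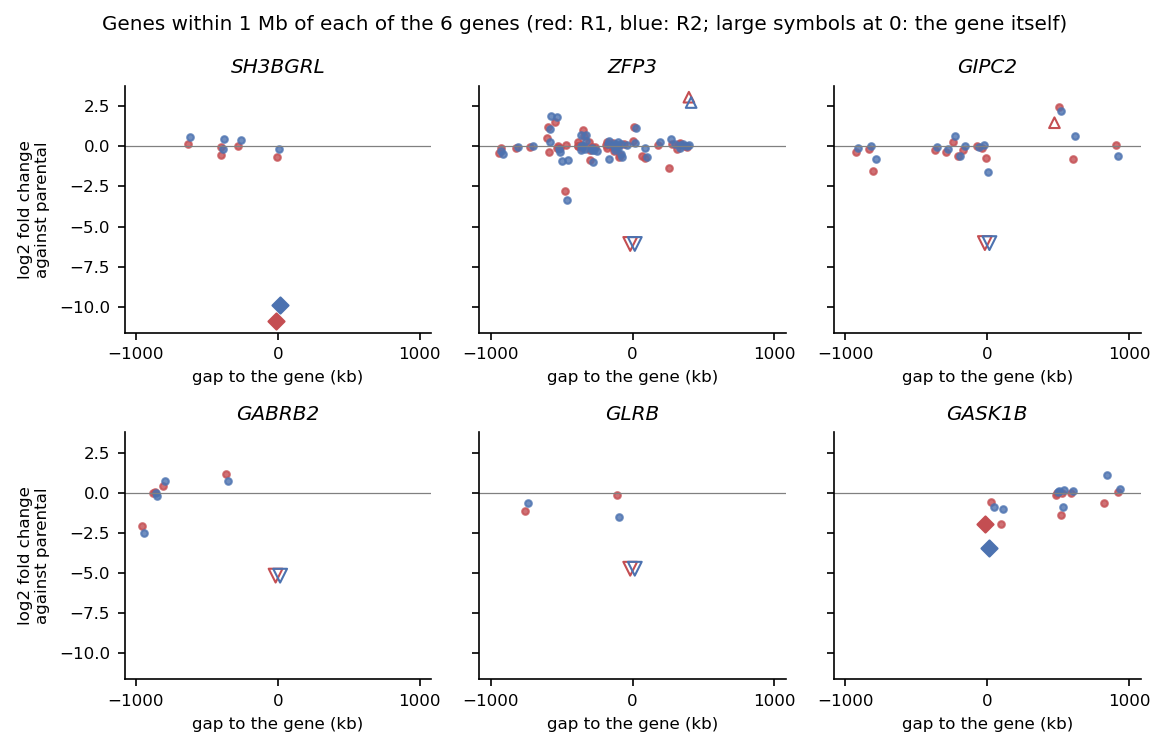
Log2 fold change against LIM1215-parental (vertical axis) of the tested genes within 1 Mb of each of the 6 genes, by their distance in kb (horizontal axis, negative towards the chromosome's start), in red for R1 and blue for R2 and shifted slightly sideways. Genes with 0 parental and at most 3 resistant counts in a line are not drawn. Large symbols at 0 are the gene itself, with open triangles for bounds where a line or parental cells had 0 counts, and the genes of the window spread around 0 with a median of -0.04 in R1 and 0.01 in R2.

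Next to SH3BGRL, the gene HMGN5 stayed transcribed. It encodes a nucleosome-binding protein, lies on the opposite strand and has its own 5′ end at 81201913, 188 bases before the start of SH3BGRL and within the promoter window printed above. Counting was by strand, so its reads are separate from those of SH3BGRL. HMGN5 had 492, 300 and 531 parental counts (26.2 ± 3.96 CPM), 294, 214 and 295 counts in LIM1215-R1 (16.6 ± 2.79) and 414, 407 and 330 in LIM1215-R2 (23.8 ± 1.96). It fell in LIM1215-R1, where its log2 fold change was -0.66 (SE 0.111, adjusted p = 2.45e-05). In LIM1215-R2 the value was -0.15 (SE 0.106, adjusted p = 0.338). The difference between the resistant lines, 0.52 (adjusted p = 0.00224), was not called without LIM1215-R1 replicate 2 (adjusted p = 0.0196), LIM1215-R2 replicate 1 (0.0225) or LIM1215-R2 replicate 2 (0.0272). The other gene of this window called lower in LIM1215-R1 was BRWD3, a bromodomain protein 392 kb away, chosen for mention after its values were seen, with a change of -0.55 on the log2 scale (adjusted p = 4.77e-06). In LIM1215-R2 the value of BRWD3 was -0.17 (adjusted p = 0.098).

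The window of ZFP3 was the most crowded, with 51 tested genes. Its nearest tested neighbours were ZNF232, another zinc finger gene 9.36 kb beyond its end, and KIF1C, a kinesin motor gene 50.1 kb before its start. ZNF232 stood at 9.43 ± 1.21, 11.7 ± 1.33 and 10.8 ± 0.0999 CPM in LIM1215-parental, R1 and R2 and passed the test in neither line (adjusted p = 0.0416 and 0.282). KIF1C stood at 306 ± 5.91, 341 ± 2.18 and 321 ± 8.22 CPM and was called higher in LIM1215-R1 by 0.16 on the log2 scale (adjusted p = 0.00283). That call was lost without parental replicate 3 (adjusted p = 0.0226) and without LIM1215-R1 replicate 3 (0.0146).

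Larger changes in the ZFP3 window lay farther out. SMTNL2, a smoothelin-like gene 470 kb away, fell from 17.5 ± 1.26 CPM to 2.55 ± 0.447 in LIM1215-R1 and 1.74 ± 0.382 in LIM1215-R2, log2 fold changes of -2.77 (adjusted p = 9.91e-15) and -3.32 (9.42e-16). SPNS2, a sphingosine-1-phosphate transporter 539 kb away, rose from 65.8 ± 4.55 CPM to 191 ± 13.7 and 231 ± 13.1, log2 fold changes of 1.54 (adjusted p = 1.92e-17) and 1.81 (5.02e-19). NLRP1, an inflammasome sensor 405 kb away, had 0 counts in parental cells, 4, 8 and 12 in LIM1215-R1 and 5, 6 and 8 in LIM1215-R2. It was at least 8.3-fold and at least 6.6-fold higher (adjusted p = 0.000201 and 0.000663). The antisense gene SPNS2-AS1, with 7, 0 and 5 parental counts, had 3, 2 and 4 counts in LIM1215-R1 (log2 fold change -0.34, adjusted p = 0.774) and was called higher in LIM1215-R2 (10, 16 and 17 counts, 1.87, adjusted p = 0.0093). The difference between the resistant lines was 2.21 and was not called (adjusted p = 0.0108), but was called under 5 alternatives, among them those without parental replicate 1 (0.00926) or parental replicate 2 (0.00268). The call against parental cells was lost with DESeq2 (adjusted p = 0.0249) and without parental replicate 2 (0.0365), parental replicate 3 (0.0269), LIM1215-R1 replicate 3 (0.0123), LIM1215-R2 replicate 2 (0.0386) or LIM1215-R2 replicate 3 (0.0475).

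Near GIPC2, the adjacent DNAJB4, a heat shock co-chaperone 27.0 kb before its start, stood at 7.58 ± 0.687, 7.19 ± 0.896 and 7.91 ± 0.76 CPM and was not called (adjusted p = 0.687 and 0.801). On the other side the nearest tested gene, the interferon-induced IFI44L 482 kb away, had 0 parental counts, 2, 1 and 5 counts in LIM1215-R1 and 3 counts in 1 library of LIM1215-R2, and was not called (adjusted p = 0.0391 and 0.223). IFI44, a related interferon-induced gene 511 kb away, rose from 0.893 ± 0.14 CPM to 4.78 ± 0.783 and 4.11 ± 1.14, log2 fold changes of 2.43 (adjusted p = 1.14e-08) and 2.20 (1e-07). Of the 15 tested genes in the window of GIPC2, 2 were called lower and 1 higher in LIM1215-R1. IFI44 was the 1 gene called in LIM1215-R2. All genes tested gave 13.4% lower and 14.0% higher in LIM1215-R1, and 11.6% and 12.3% in LIM1215-R2.

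GABRB2 had 5 tested genes within 1 Mb. The nearest, ATP10B, a lipid flippase gene 359 kb away, rose from 140 ± 4.02 CPM to 312 ± 8.7 in LIM1215-R1 and 234 ± 6.99 in LIM1215-R2, log2 fold changes of 1.15 (SE 0.0456, adjusted p = 1.92e-17) and 0.74 (SE 0.0457, adjusted p = 2.94e-13). CCNJL, a cyclin-like gene 949 kb away, fell from 5.44 ± 0.318 CPM to 1.26 ± 0.336 and 0.965 ± 0.476, log2 fold changes of -2.10 (adjusted p = 7.12e-08) and -2.50 (7.69e-09). The other 3 were not called in either line.

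GLRB and GASK1B lie on the same arm of chromosome 4, 952 kb apart. RefSeq placed 8 genes between them, of which GRIA2, a glutamate receptor subunit gene, was the 1 protein-coding gene, and it had 0 counts in all 9 libraries. None of the 8 reached 10 counts, and the only counts were 3 parental ones of a long non-coding RNA, so no gene between them could be tested. On the outer side of GLRB, PDGFC, a growth factor gene 104 kb before its start, had 20, 18 and 19 parental counts, 12, 20 and 18 in LIM1215-R1 and 6, 9 and 4 in LIM1215-R2. It was called lower in LIM1215-R2 (log2 fold change -1.53, adjusted p = 0.00268) and not in LIM1215-R1 (-0.15, adjusted p = 0.782). The call was lost with DESeq2 (adjusted p = 0.0119), without LIM1215-R2 replicate 1 (0.0154) and without LIM1215-R2 replicate 3 (0.0186). The difference between the resistant lines was not called (adjusted p = 0.0187), but was called without LIM1215-R1 replicate 1 (0.00944).

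On the outer side of GASK1B, TMEM144, a membrane protein gene 37.5 kb from its 5′ end, fell in both lines. It had 502, 404 and 567 parental counts (29.5 ± 0.309 CPM), 361, 298 and 283 in LIM1215-R1 (19.5 ± 2.33) and 269, 286 and 212 in LIM1215-R2 (15.9 ± 1.94), and the resistant libraries all lay below the parental ones. The log2 fold changes were -0.60 (SE 0.0916, adjusted p = 6.77e-06) and -0.90 (SE 0.0941, adjusted p = 1.24e-08), smaller than those of GASK1B at -1.95 and -3.42. The difference between the resistant lines was -0.30 and missed the threshold (adjusted p = 0.0446). Of the 9 tested genes in the window of GASK1B, TMEM144 was the 1 called lower in each line. Among all genes tested, 13.4% were called lower in LIM1215-R1 and 11.6% in LIM1215-R2.

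Relatives and partners of the 6 genes were followed in 8 lists with 103 genes, of which 102 were listed and 49 tested. In LIM1215-R1, 14 of the 49 (28.6%) were called lower and 7 (14.3%) higher. LIM1215-R2 had the same counts, 14 lower and 7 higher. Over all genes tested, 13.4% were called lower and 14.0% higher in LIM1215-R1, and 11.6% and 12.3% in LIM1215-R2. The lists' median log2 fold change was -0.18 in LIM1215-R1 and -0.15 in LIM1215-R2. DEGs were 2 lower and 2 higher in each line, and the genes among them were ZFP69, GABRA2, RGS19, NLGN2 and FJX1.

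The closest relatives of SH3BGRL did not share its pattern. SH3BGRL2 fell from 126 ± 3.04 CPM to 92.6 ± 1.89 in LIM1215-R1 and 86.6 ± 1.88 in LIM1215-R2, log2 fold changes of -0.45 (adjusted p = 4.12e-08) and -0.55 (1.15e-09). SH3BGRL3 was higher, at 103 ± 12.5, 126 ± 10.4 and 124 ± 2.89 CPM, log2 fold changes of 0.29 (adjusted p = 0.00117) and 0.26 (0.00316). Its call was lost without parental replicate 3 in LIM1215-R1 (adjusted p = 0.0221) and in LIM1215-R2 (0.0499), and in LIM1215-R2 also without parental replicate 1 (0.018), LIM1215-R2 replicate 1 (0.0137) or replicate 2 (0.026). SH3BGR had at most 4 counts in a library and was not tested. Per kb of exon, the parental levels were 118 CPM for SH3BGRL3 and 27.5 for SH3BGRL2, above the 18.6 of SH3BGRL.

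Among 12 tested genes named ZFP, 4 were called lower in LIM1215-R1 and 3 in LIM1215-R2, against 13.4% and 11.6% of all genes tested. ZFP69 was the 1 DEG, with 17, 11 and 14 parental counts, 1 count in LIM1215-R1 and 0 in LIM1215-R2. It was 40.6-fold lower in LIM1215-R1 (exact 95% counting interval 6.91 to 1640, adjusted p = 3.92e-05) and in LIM1215-R2 at least 13.6-fold lower (adjusted p = 1.19e-05). ZFP91, the most abundant of the list, stood at 132 ± 5.0, 130 ± 6.24 and 139 ± 4.78 CPM and was not called (adjusted p = 0.734 and 0.375).

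GIPC1, the abundant relative of GIPC2, remained at 90.0 ± 6.31 CPM in parental cells, 93.8 ± 1.52 in LIM1215-R1 and 75.9 ± 4.88 in LIM1215-R2. It was not called in LIM1215-R1 (log2 fold change 0.06, adjusted p = 0.478) and was called lower in LIM1215-R2 (-0.24, adjusted p = 0.00207), a call lost without parental replicate 2 (0.0153), LIM1215-R2 replicate 1 (0.028) or LIM1215-R2 replicate 2 (0.013). GIPC3 had 0 counts in all libraries.

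Of the 9 tested genes among relatives and partners of GIPC2, 3 were called lower and 2 higher in LIM1215-R1. In LIM1215-R2, 4 were called lower and 2 higher. Their median log2 fold changes were -0.19 and -0.18. All genes tested gave 13.4% lower and 14.0% higher in LIM1215-R1, and 11.6% and 12.3% in LIM1215-R2. Among the known partners of GIPC proteins, the glucose transporter gene SLC2A1 rose from 408 ± 27.2 CPM to 899 ± 52.9 and 715 ± 20.2, log2 fold changes of 1.14 (adjusted p = 5.17e-17) and 0.81 (7.96e-14). RGS19, a regulator of G-protein signalling, rose from 4, 2 and 6 counts to 25, 24 and 25 in LIM1215-R1 (log2 fold change 2.64, adjusted p = 3.47e-06). It had 10, 13 and 12 counts in LIM1215-R2 (1.57, adjusted p = 0.0068), a call lost with DESeq2 (0.0253) and without parental replicate 1 (0.0217), parental replicate 2 (0.0298), LIM1215-R2 replicate 2 (0.0258) or LIM1215-R2 replicate 3 (0.0222). MYO6, the gene of myosin VI, stood at 109 ± 6.82, 95.9 ± 7.79 and 99.2 ± 6.54 CPM and was not called (adjusted p = 0.0192 and 0.0943). In LIM1215-R1, MYO6 was called with the replicate number as a block (0.00236) and without parental replicate 2 (0.00314) or LIM1215-R1 replicate 1 (0.00399).

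Other partners of GIPC proteins were called lower, and they were chosen for mention after their values were seen. TGFBR3, a co-receptor for transforming growth factor beta, fell from 62.6 ± 2.36 CPM to 33.7 ± 1.76 in LIM1215-R1 and 43.0 ± 0.41 in LIM1215-R2, log2 fold changes of -0.89 (adjusted p = 6.67e-12) and -0.54 (6.38e-08). IGF1R, the insulin-like growth factor receptor gene, fell from 34.2 ± 0.743 CPM to 18.5 ± 0.705 in LIM1215-R1 (-0.88, adjusted p = 6.43e-10) and stood at 30.2 ± 2.49 in LIM1215-R2 (-0.18, adjusted p = 0.0675). NRP1, a co-receptor for semaphorins, stood at 1.70 ± 0.204 CPM in parental cells and 2.41 ± 0.0301 in LIM1215-R1 (0.51, adjusted p = 0.0971) and fell to 0.663 ± 0.199 in LIM1215-R2 (-1.34, adjusted p = 0.000742). APPL1, an endosomal adaptor, fell from 73.4 ± 2.76 CPM to 53.9 ± 4.23 and 60.5 ± 6.93 (-0.45, adjusted p = 1.46e-05, and -0.28, adjusted p = 0.003). The APPL1 call in LIM1215-R2 was lost without parental replicate 1 (0.0188), parental replicate 3 (0.0126), LIM1215-R2 replicate 2 (0.0185) or LIM1215-R2 replicate 3 (0.0365).

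A second GABA-A subunit gene fell with GABRB2. GABRA2, which encodes the alpha 2 subunit, had 69, 44 and 73 parental counts (3.69 ± 0.463 CPM), 6, 6 and 3 in LIM1215-R1 (0.311 ± 0.107) and 14, 13 and 4 in LIM1215-R2 (0.633 ± 0.322), and no resistant library overlapped the parental ones. The log2 fold changes were -3.55 (SE 0.339, adjusted p = 2.1e-09) and -2.52 (SE 0.294, adjusted p = 7.96e-08). GABRE, the epsilon subunit, stood at 4.45 ± 0.434, 5.88 ± 1.13 and 6.18 ± 1.11 CPM and was not called (adjusted p = 0.0603 and 0.03). Of 18 other GABA-A subunit genes, 5 were tested, GABRA2 was the 1 called in each line, and 11 had 0 counts in every library. The tested subunits other than GABRA2 had log2 fold changes above 0 in both lines, without a call. The median of the 5 was 0.41 in LIM1215-R1 and 0.83 in LIM1215-R2. GABRB1 had 1 parental count, 11 in LIM1215-R1 and 2 in LIM1215-R2, with no call (adjusted p = 0.0401 and 0.745).

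The partner subunits of GLRB were at or near 0 in all 3 lines. None of the 4 glycine receptor alpha genes, of which RefSeq lists GLRA4 as a transcribed pseudogene, had enough counts to be tested. GLRA1 had 0 counts in all libraries. GLRA2, GLRA3 and GLRA4 had 0 in parental cells and at most 3 in a resistant library. The gephyrin gene GPHN stood at 83.4 ± 5.16, 68.3 ± 2.77 and 78.1 ± 0.891 CPM and fell in LIM1215-R1 (log2 fold change -0.29, adjusted p = 0.000234). In LIM1215-R2 it had a log2 fold change of -0.09 (adjusted p = 0.243). NLGN2, an adhesion protein of inhibitory synapses, rose from 6.21 ± 0.32 CPM to 17.8 ± 2.03 and 15.1 ± 0.479, log2 fold changes of 1.52 (adjusted p = 1.35e-11) and 1.28 (6.07e-10). CLPTM1, which retains GABA-A receptors inside the cell, stood at 154 ± 8.21, 160 ± 10.2 and 151 ± 1.83 CPM, with no call (adjusted p = 0.47 and 0.739). Of 21 nicotinic and 5-HT3 subunit genes, which belong to the same receptor class, 6 were tested and 1 was called higher in each line, and CHRNA5, the most abundant, stood at 22.2 ± 0.986, 22.4 ± 1.61 and 22.0 ± 0.481 CPM.

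The closest relative of GASK1B, GASK1A, had 0 counts in all libraries. Shares of all genes tested were 13.4% lower and 14.0% higher in LIM1215-R1, and 11.6% lower and 12.3% higher in LIM1215-R2. Of the 7 tested genes of the secretory kinase list, 3 were called lower and 1 higher in each line. PKDCC, a secreted kinase and the most abundant of them, fell from 107 ± 11.6 CPM to 65.1 ± 1.54 and 66.0 ± 1.49, log2 fold changes of -0.72 (adjusted p = 5.37e-10) and -0.70 (9.17e-10). FJX1, a relative of the four-jointed kinase, rose from 11, 21 and 16 counts to 43, 50 and 39 in LIM1215-R1 and 58, 53 and 66 in LIM1215-R2, log2 fold changes of 1.49 (adjusted p = 5.97e-05) and 1.91 (8.21e-07).

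**Figure D4:**
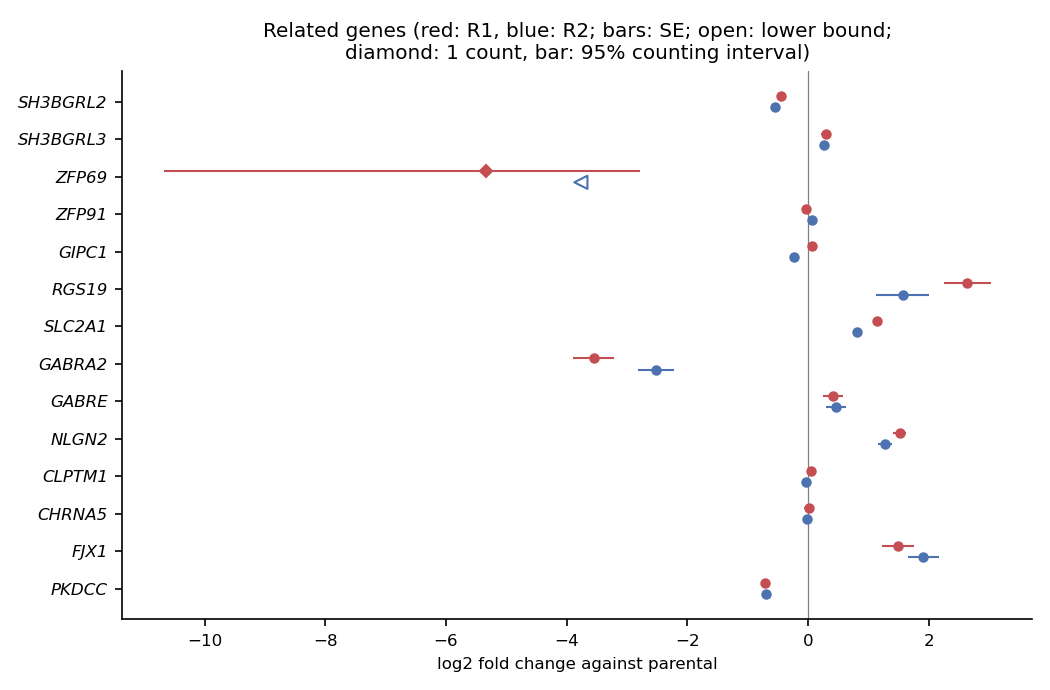
Log2 fold change against LIM1215-parental (horizontal axis) of 14 relatives and partners (vertical axis) in red for R1 and blue for R2, with bars for the SE. For ZFP69 the open triangle is a lower bound and the diamond a ratio with 1 count and its 95% counting interval. ZFP69 and GABRA2 lie farthest to the left, RGS19 and FJX1 farthest to the right.

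Markers of the tissue of origin were present in every library, and 9 of 10 colon epithelial markers were tested, with KRT20 at 0 counts. Their summed level was 12700 to 13100 CPM in parental libraries, 15900 to 16200 in LIM1215-R1 and 14400 to 14800 in LIM1215-R2. Single markers moved both ways, with 5 called lower and 3 higher in each line and median log2 fold changes of -0.23 and -0.32. The shares of all genes tested were 13.4% lower and 14.0% higher in LIM1215-R1, and 11.6% lower and 12.3% higher in LIM1215-R2. CDX1, an intestinal transcription factor gene, fell by 0.85 on the log2 scale in LIM1215-R1 (adjusted p = 3.91e-13) and by 0.65 in LIM1215-R2 (9.23e-11), whereas KRT8 and KRT18, keratin genes, were among those called higher. Since GABRB2 and GLRB are best known in neurons, 10 neuronal and enteroendocrine markers were counted beside them. Of these, 3 were tested and 4 had 0 counts in all libraries, CHGA, INSM1, SNAP25 and ELAVL4. Their summed level, most of it TUBB3, was 14.1 to 16.5 CPM in parental cells, 11.1 to 11.9 in LIM1215-R1 and 20.7 to 24.5 in LIM1215-R2. Of 10 immune, endothelial and fibroblast markers, 4 were tested and PTPRC, CD3E and COL1A2 had 0 counts in all libraries, with sums of 9.91 to 13.3, 13.6 to 16.0 and 9.93 to 12.0 CPM. PECAM1, an endothelial adhesion gene of that list, had 2, 10 and 3 parental counts and 0 in all 6 resistant libraries, and its part in the values of the 6 genes was not tested.

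The on and off pattern of the first 5 genes was uncommon. Of 12790 genes with at least 10 counts in each parental library, 33 (0.258%) had at most 2 counts in all in each resistant line, the 5 genes and 28 others. Of the 33 genes, 12 had 0 counts in every resistant library. A further 7 genes were off in LIM1215-R1 alone and 14 in LIM1215-R2 alone by the same limits, and 25 genes showed the mirrored pattern, off in parental cells and on in both resistant lines. GASK1B, with 189 and 68 counts, was not among the 33. Of the 33, 32 had a RefSeq position, and 30 of these were protein-coding. C3orf14 had no position under this name, so pairs with it could not be looked for. The 32 placed genes lay on 15 chromosomes with 0 pairs within 1 Mb of each other. Chromosome 4 held the most of them, with GLRB, ATOH1, ARHGAP24, DCLK2, NDNF and ODAM. The share of all genes on chromosome 4 is not given here, so an excess cannot be read from this.

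After SH3BGRL, the genes most like it, ranked by mean CPM over the parental libraries, began with RPL10P12, ZDHHC2 and RCOR2. RPL10P12 is a pseudogene of a ribosomal protein gene that can share reads with its parent gene, so its 117, 150 and 142 parental counts (8.40 ± 2.13 CPM) against 2 and 1 in the resistant lines are uncertain. ZDHHC2, a palmitoyltransferase gene, had 76, 57 and 87 parental counts (4.39 ± 0.24 CPM), 2 in LIM1215-R1 and 1 in LIM1215-R2. RCOR2, a corepressor gene, had 63, 69 and 85 parental counts (4.39 ± 0.637 CPM) and 1 in each resistant line. C3orf14 (3.90 ± 0.511 CPM) and MATN2, an extracellular matrix gene (2.98 ± 0.694 CPM), completed the 5 highest of the 28, with 1 and 0 and with 1 and 1 resistant counts. SH3BGRL, at 39.8 CPM, therefore stood apart from the other genes of this pattern in its parental level.

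Just inside the limits, ODAM had 32 parental counts in all, 1 in LIM1215-R1 and 0 in LIM1215-R2. Another 14 genes with at least 10 counts in each parental library lay just outside, with up to 5 counts in a resistant line. Of these, KLF7 had 387 parental counts against 4 and 1, and FAM171A1 had 322 against 5 and 0. These genes were picked by their values, and the counts depend on the limits.

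**Figure D5:**
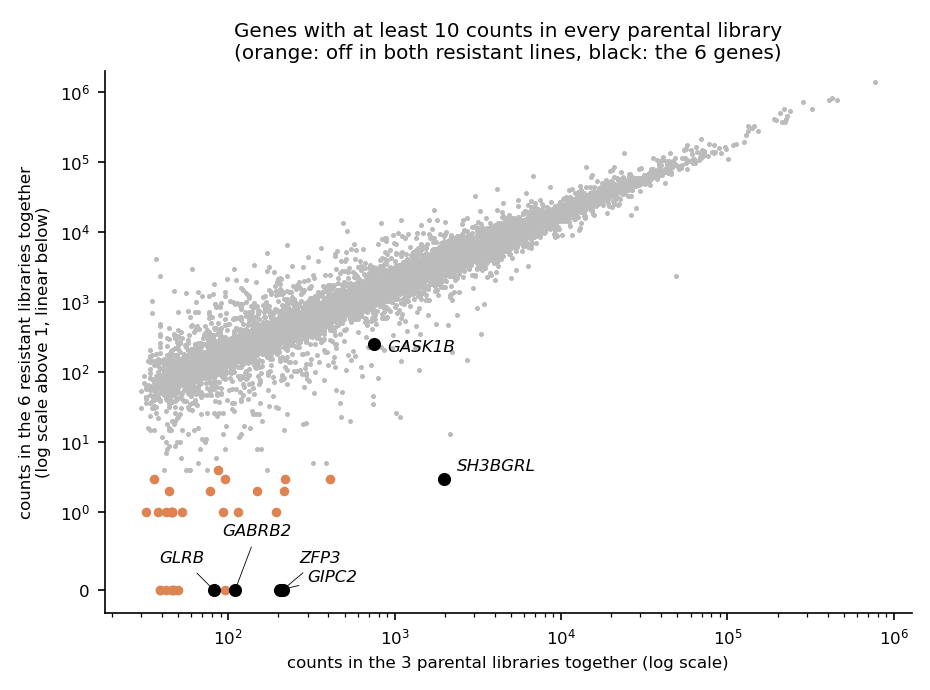
Counts in the 6 resistant libraries together (vertical axis, log scale above 1 and linear below) against counts in the 3 parental libraries together (horizontal axis, log scale) for the 12790 genes with at least 10 counts in each parental library. The 33 genes off in both resistant lines lie along the bottom, in orange or, for the 5 genes of interest, in black, with SH3BGRL far to the right of the others at 1988 parental counts and GASK1B above at 755.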

How the data were processed

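RNA was measured in 3 stranded, paired-end poly(A) libraries for each of LIM1215-parental, R1 and R2. The authors mapped the reads to hg38 (STAR), obtained reverse-strand counts of each gene (htseq-count 0.9.1) and deposited the raw counts, 1 table per library, without normalization. The gene annotation is not given in the sources used here. Of 58920 names, 57540 matched RefSeq (GRCh38.p14), which gave positions and promoters. Exon lengths came from GENCODE release 44 and covered 16478 of the tested genes (86.3%).

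The analysis used edgeR 4.0.16 (R 4.3.3) on the 19102 genes whose counts summed to 10 or more, scaled with TMM factors of 0.9844 to 1.017. A quasi-likelihood model with 3 groups was fitted, and p-values were adjusted by the Benjamini-Hochberg method over all genes tested, with calls at 0.01. The biological coefficient of variation was 4.92%. CPM values use the TMM factors. Total counts were 13737416 to 18725014, so 3 counts equal 0.158 to 0.217 CPM in a library. Against a line with 0 counts, fold changes are bounds at 3 counts over the line's libraries, and with 1 to 3 counts exact 95% counting intervals are given. Replicate libraries differed by more than sampling noise (chi-square per degree of freedom 1.82 to 6.04). Scripts were tested on simulated data. Replicate numbers were not taken to pair the libraries.

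The genes and lists were chosen with earlier results of these data known. Under the rule for names, the genes named were the 6 genes, their nearest tested neighbour on each side and DEGs within 1 Mb, and in the lists DEGs, closest paralogs and the most abundant gene, as well as the 5 genes of highest parental CPM with the same pattern. BRWD3, MYO6, GPHN, TGFBR3, IGF1R, NRP1, APPL1, the markers and the genes beside the limits were named in addition. ZFP112 is not analysed here, and not every gene under the rule is reported. Alternatives were DESeq2 1.42.0 and its size factors, other filters, thresholds and windows, a replicate block and each library left out.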

Additional observations from a re-analysis of the deposited data

Results flagged for a closer look

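The log2 fold change of LIM1215-R2 against LIM1215-R1 was tested in the edgeR model over all genes. Among the 87 tested neighbours, 4 (4.6%) were called lower and 3 (3.45%) higher in LIM1215-R2. Among the 49 tested relatives and partners, 4 (8.16%) were called lower and 2 (4.08%) higher. The shares of all genes tested were 3.77% lower and 3.39% higher. Values are given for the genes named in the report. The log2 fold change was -1.47 for GASK1B (adjusted p = 6.64e-06), where all 3 LIM1215-R2 libraries lay below all 3 LIM1215-R1 libraries.

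Among neighbours, it was 0.52 for HMGN5 (adjusted p = 0.00224), beside SH3BGRL. It was 0.28 for SPNS2 (adjusted p = 0.00115), in the window of ZFP3, a difference not called without LIM1215-R1 replicate 3 (adjusted p = 0.0174) or LIM1215-R2 replicate 3 (0.0129). It was -0.41 for ATP10B (adjusted p = 1.45e-07), the nearest tested gene of GABRB2. BRWD3, also near SH3BGRL, differed by 0.37 (adjusted p = 0.00277), a call lost without LIM1215-R1 replicate 2 (0.0198), LIM1215-R2 replicate 1 (0.0123) or LIM1215-R2 replicate 2 (0.0238). Leaving out LIM1215-R1 replicate 2 (adjusted p = 0.0196), LIM1215-R2 replicate 1 (0.0225) or LIM1215-R2 replicate 2 (0.0272) ended the call of HMGN5.

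Among relatives and partners of GIPC2, it was -0.33 for SLC2A1 (adjusted p = 1.04e-05) and -0.31 for GIPC1 (adjusted p = 0.000779), the latter not called without LIM1215-R2 replicate 1 (adjusted p = 0.0162). It was -1.85 for NRP1 (adjusted p = 3.23e-05), 0.70 for IGF1R (adjusted p = 4.51e-07) and 0.35 for TGFBR3 (adjusted p = 0.000477), and these 3 calls held in all 14 alternatives of the fit.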

How the results depend on the processing

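The replicates are called technical, and counts near 0 limit all bounds. Of 103 comparisons of the genes named under the rule, 53 were called. Of 1415 values under the alternatives, 1379 kept direction and side of the threshold, 30 lost and 6 gained a call, and 0 reversed. DEGs and genes with the on and off pattern were named for their values. These counts therefore do not show how stable the calls of other genes are. The call of GASK1B between the resistant lines held in all alternatives run.

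Neighbours called lower in LIM1215-R2 numbered 14, and 9 with DESeq2 (the cause was not tested), 9 within 0.5 Mb, and 6 to 14 with a library left out (6 without LIM1215-R2 replicate 1, 9 without parental replicate 2 or LIM1215-R2 replicate 2). Within 2 Mb, which holds more genes, 18 were lower in LIM1215-R1, and 14 were higher in each line. Within 0.5 Mb, 4 were higher in LIM1215-R2, and DEGs were 2 in LIM1215-R1 and 3 in LIM1215-R2. Related genes called higher in LIM1215-R2 numbered 4 to 7 with a library left out, with the lowest value without parental replicate 1. With a limit of 1 on the log2 scale in place of 1.5, related DEGs were 7 in each line. Genes with the same pattern numbered 12 when 0 resistant counts were allowed, 51 when each parental library needed 5 counts and 14 when it needed 20.

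Same-numbered libraries had correlations of -0.106 to 0.274 over 9 pairs, others -0.265 to 0.191, and 4 of 9 libraries correlated best with their own number. With the replicate number as a block, calls went from 5222 to 5841 in LIM1215-R1, from 4554 to 5197 in LIM1215-R2, and from 1368 to 2044 between the resistant lines, with 1 of the 6 genes called.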
